A study of Homo sapiens with 12 samples.

Results

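HMGA2, HMGA1, LIN28B, IGF2BP1, IGF2BP2, IGF2BP3, ARID3A and ARID3B are 8 genes known as targets of the let-7 miRNAs or as regulators of foetal growth programmes, and they were found by symbol among the 58051 genes of the count tables. They were chosen by their symbols with their changes between treated and control cells already known. These changes, and whether the fit over all genes called them, are given as a description without p-values and as no evidence of a response. The difference in level between control cells of different lines was not a contrast of that choice and was tested. It uses control libraries that also enter the known changes, so the test is not independent of the choice. RNA-seq was performed on 12 libraries of 3 established human renal carcinoma lines. The lines 786-O, with 1 library per condition, and A-498, with 2, had been transfected either with a miR-29 mimic (an RNA duplex that supplies the miRNA) or with its control mimic. ACHN, with 3 libraries per condition, had been transfected either with a miR-29 inhibitor, which blocks the endogenous miRNA, or with its control inhibitor. All cells received 10 nM by reverse transfection and RNA was taken 48 hours later, and each line is 1 cultured model with no untransfected sample analysed here. The question put to these genes was whether a delivered miRNA is accompanied by relief of the targets of another miRNA.

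A miRNA guides Argonaute proteins to messenger RNAs by pairing of its seed, bases 2 to 8, with the 3′ UTR, and the paired messages are silenced and degraded. The let-7 family accumulates as cells differentiate and silences growth genes of the embryo. LIN28B closes a loop in this pathway, since the protein binds let-7 precursors and blocks their maturation while its own message is a let-7 target. HMGA2 is the best known of these targets, because tumours that lose its 3′ UTR escape let-7.

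The 2 miRNA seeds differ, which is why both sets are shown. In RefSeq (GRCh38.p14), 11 different mature sequences from 14 genes carried the let-7 seed and 3 from 4 genes carried the miR-29 seed. The capitals mark bases 2 to 8.
hsa-let-7a-5p: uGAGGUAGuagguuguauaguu
hsa-miR-98-5p: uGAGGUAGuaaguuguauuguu
hsa-miR-29a-3p: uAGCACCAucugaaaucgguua
hsa-miR-29b-3p: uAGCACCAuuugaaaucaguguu

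The targets were read from the 3′ UTR of the MANE Select transcript of each gene (GENCODE v44, GRCh38). A 7mer-m8 is a match to all bases of the seed (CTACCTC for let-7 and TGGTGCT for miR-29), an 8mer has an A after it, a 7mer-A1 lacks the base opposite the last seed position but has that A, and a 6mer has neither. The following windows show the 4 matches of HMGA2 to the whole let-7 seed, 1 such match of each other gene, and the 1 whole miR-29 seed match among the 8 genes, with the matched bases in capitals.
HMGA2 8mer, chr12:65963299-65963321, plus strand: ccaacgttcgatttCTACCTCAg
HMGA2 7mer-m8, chr12:65964534-65964555, plus strand: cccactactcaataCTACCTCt
HMGA2 7mer-m8, chr12:65964946-65964967, plus strand: tgacttgcaaagacCTACCTCc
HMGA2 7mer-m8, chr12:65965799-65965820, plus strand: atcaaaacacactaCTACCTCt
HMGA1 7mer-m8, chr6:34245830-34245851, plus strand: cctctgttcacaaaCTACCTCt
LIN28B 8mer, chr6:105078813-105078835, plus strand: cccggttgcaaagtCTACCTCAt
IGF2BP1 8mer, chr17:49051062-49051084, plus strand: gtgtgcgaagtaaaCTACCTCAa
IGF2BP2 8mer, chr3:185644219-185644241, minus strand: acacacagaagaagCTACCTCAg
IGF2BP3 8mer, chr7:23311794-23311816, minus strand: gcatttttactcaaCTACCTCAg
ARID3A 8mer, chr19:974512-974534, plus strand: ctgcctatctctgtCTACCTCAg
ARID3B 7mer-m8, chr15:74598102-74598123, plus strand: atttcaataaacctCTACCTCt
IGF2BP1 miR-29 7mer-m8, chr17:49051621-49051642, plus strand: gcttttcccaccagTGGTGCTg

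Every one of the 8 genes held at least 1 match to the whole let-7 seed, against 9.85% of the 18780 MANE Select 3′ UTRs. HMGA2, LIN28B and IGF2BP1 held 4 each, a number reached by 12 genes in all (0.0639%). The let-7 matches of HMGA2 were spread over its 2999 nt, and with the shorter forms included there were 8, namely 1 8mer, 3 7mer-m8, 3 7mer-A1 and 1 6mer. ARID3B, whose 3′ UTR was 2357 nt long, held 4 7mer-A1 and 1 7mer-m8. A whole miR-29 seed match was found in 14.1% of all genes and, among the 8, in IGF2BP1, 2191 nt after the stop codon. The genes were picked as known let-7 targets, so that their matches describe the choice and are no finding. HMGA2 has 7 different annotated 3′ UTRs, and the longest of them (7421 nt, from another last exon) held no whole let-7 seed match. The counts pool all isoforms of a gene.

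**Figure D1:**
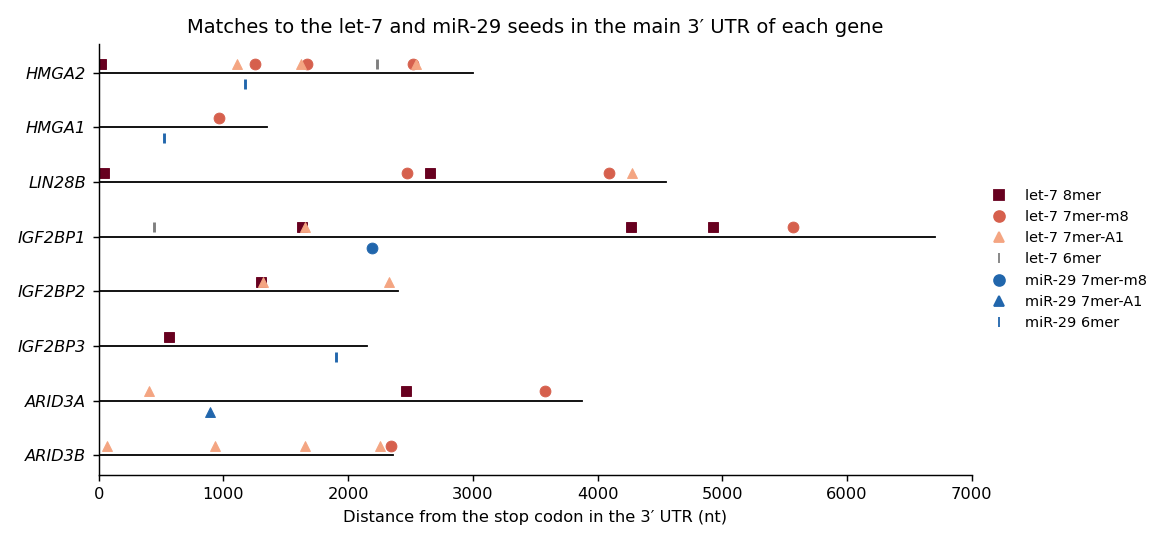
Position of let-7 (above each line) and miR-29 (below each line, blue) seed matches along the MANE Select 3′ UTR of the 8 genes, in nt after the stop codon; each black line is as long as the 3′ UTR and the marker shape gives the match type. HMGA2 and IGF2BP1 carry matches along much of their length, and IGF2BP1 holds the only whole miR-29 seed match.

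The treatment and the cells were checked with lists of genes that were chosen with earlier results of these data known. Of 18 known miR-29 targets, 16 were tested in A-498, where 14 were lower and 1 was higher with the mimic (median log2 change -0.97); in ACHN 16 of 17 were higher with the inhibitor and 0 were lower (median 0.99); and in 786-O 13 of 16 were past a log2 ratio of -1 (median -2.00). Counts per gene totalled 39919554 to 70027392 per library. PAX8, a renal lineage factor, stood at group means of 72.7 to 643 counts scaled to the reads in genes of the library (CPM). Other kidney markers were low in some lines, with group means from 1.27 to 46.6 CPM for PAX2 and from 0.0387 to 11.5 CPM for CA9. The 7 blood and vessel markers summed to 0.267 to 0.846 CPM per library, and CD3E, which defines T cells, was at 0 in 5 of the 6 groups. Among the 8 kidney and epithelial markers, VIM had the highest mean level in every group except ACHN inhibitor cells, where KRT8 had it. These 8 markers moved with treatment. In A-498, 5 were higher and 2 lower with the mimic (summed level 3718 to 3936 CPM in control libraries and 5305 to 5459 CPM in mimic libraries), and in ACHN, 2 were higher and 4 lower of 7 tested (5403 to 5831 CPM and 4530 to 4801 CPM). Their part in the results below was not tested.

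HMGA2 (ENSG00000149948, chr12:65824460-65966291, plus strand) encodes a chromatin protein that bends AT-rich DNA and is silent in most adult tissues. In 786-O it was at 55.8 CPM in the control library and 198 CPM in the mimic library. In A-498 it was at 4.77 and 4.64 CPM in the control libraries and at 28.98 and 28.44 CPM in the mimic libraries. In ACHN it was at 184, 183 and 170 CPM in the control libraries and at 257, 219 and 223 CPM in the inhibitor libraries. HMGA2 was thus higher in the treated than in the control libraries in each of the 3 lines, although the mimic and the inhibitor are opposite treatments. The ranges did not overlap in A-498 and ACHN, as for 75.7% and 43.9% of all genes tested. In 786-O, 1 library per group leaves no range to overlap. The log2 change was 2.53 ± 0.07 (SE) in A-498, 0.39 ± 0.06 in ACHN and 1.80 in 786-O (1 library against 1, no replicate check), or 5.79-fold, 1.31-fold and 3.49-fold. Among all genes tested, 99.6%, 90.5% and 98.5% had a lower log2 change in the respective comparison. The ACHN increase was nevertheless small beside the level, and the A-498 level with the mimic (28.7 ± 0.38 CPM, SD, n = 2) stayed below that of either 786-O library. In such bulk samples, more cells with the message and more message per cell cannot be told apart.

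In order of level, HMGA2 was lowest in A-498 control cells, followed by A-498 mimic, 786-O control, ACHN control, 786-O mimic and ACHN inhibitor cells, and no neighbours in this order overlapped, with 786-O resting on 1 library per group.

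HMGA1 (ENSG00000137309, chr6:34236873-34246231, plus strand), the second AT-hook chromatin protein of the family, did not follow HMGA2 in every line. It was at 33.2 CPM in the 786-O control library and 26.0 CPM in the mimic library. The A-498 control libraries held 66.7 and 57.7 CPM and both mimic libraries 124 CPM each. The ACHN control libraries held 345, 371 and 387 CPM and the inhibitor libraries 360, 387 and 314 CPM. The groups were thus apart in A-498 and overlapped in ACHN, with log2 changes of 0.92 ± 0.06 and -0.05 ± 0.06. The 786-O ratio was -0.38. The order of its levels ran from 786-O over A-498 control and A-498 mimic to ACHN, where the treated and control ranges overlapped. Few counts were assigned to processed copies of HMGA1, since none of the 8 HMGA1 pseudogenes held more than 0.365% of the counts of the gene over the 12 libraries. Reads in no single gene were left out, so that reads shared with a copy are not covered.

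LIN28B (ENSG00000187772, chr6:104936616-105083332, plus strand), the inhibitor of let-7 maturation, was hardly detected, so that these lines give little on the gene. It had 2 counts in the 786-O control library and 8 in the mimic library. In A-498 it had 0 counts in both control libraries and 3 and 4 in the mimic libraries. In ACHN it had 0, 1 and 1 counts in the control libraries and 0, 1 and 0 in the inhibitor libraries. This made 20 counts among 638167678 reads in genes over all libraries. In 786-O the ratio of the shares was 4.05 with an exact 95% interval of 0.808 to 39.1, which covers counting error only and includes no change. A count of 0 over the A-498 control group allowed a level of up to 0.0259 CPM (3 counts over the group). LIN28B was not tested in A-498 or ACHN, and it passed the minimum of 10 counts in 786-O, where its log2 ratio was 1.32 with the prior count of 2. The neighbouring groups ACHN and A-498 control could not be told apart.

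The 3 IGF2BP genes encode RNA-binding proteins that stabilise growth messages in the embryo, and they moved differently. IGF2BP1 (ENSG00000159217, chr17:48997385-49056145, plus strand) was at 2.49 CPM in the 786-O control library and 1.96 CPM in the mimic library. In A-498 it was at 1.01 and 1.09 CPM in the control libraries and at 2.90 and 2.97 CPM in the mimic libraries, from 56 to 178 counts each. In ACHN it was at 5.31, 5.33 and 5.26 CPM in the control libraries and at 5.10, 4.77 and 4.71 CPM in the inhibitor libraries. The gene was thus higher with the mimic in A-498, lower in 786-O and slightly lower with the inhibitor in ACHN. The ranges did not overlap in A-498 and ACHN, as for 75.7% and 43.9% of all genes tested. The log2 changes were 1.40 ± 0.16, -0.36 and -0.11 ± 0.09, and the ACHN change was not called. IGF2BP1, the gene with a whole miR-29 seed match, was therefore among those higher with the miR-29 mimic in A-498. Its lowest level was in A-498 control cells, followed by 786-O mimic, 786-O control, A-498 mimic, ACHN inhibitor and ACHN control cells.

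IGF2BP2 (ENSG00000073792, chr3:185643130-185825042, minus strand), the member of the family that adult tissues also express, was at 224 CPM in the 786-O control library and 236 CPM in the mimic library. The A-498 control libraries held 17.9 and 16.4 CPM and the mimic libraries 26.2 and 25.0 CPM. The ACHN control libraries held 73.9, 71.5 and 72.2 CPM and the inhibitor libraries 73.6, 72.9 and 73.2 CPM. The groups were apart in A-498 (log2 change 0.50 ± 0.07), overlapped in ACHN (0.02 ± 0.04) and were close in 786-O (0.05). Levels were lowest in A-498 and highest in 786-O, with the ACHN groups between them and not apart from each other.

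IGF2BP3 (ENSG00000136231, chr7:23310209-23470491, minus strand), a foetal gene often re-expressed in renal carcinoma, went the other way from HMGA2 in both mimic lines. It was at 169 CPM in the 786-O control library and 102 CPM in the mimic library. In A-498 it was at 148 and 160 CPM in the control libraries and at 144 and 139 CPM in the mimic libraries. In ACHN it was at 70.9, 70.8 and 73.5 CPM in the control libraries and at 77.0, 77.6 and 76.4 CPM in the inhibitor libraries. With the mimic it was thus lower, and with the inhibitor higher, without overlap in A-498 and ACHN (75.7% and 43.9% of all genes tested). The log2 changes were -0.20 ± 0.04 (A-498), -0.76 (786-O) and 0.11 ± 0.04 (ACHN), of which the last was not called. The order ran from ACHN control over ACHN inhibitor, 786-O mimic, A-498 mimic and A-498 control to 786-O control.

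ARID3A and ARID3B encode AT-rich interaction domain proteins that bind DNA, often together. ARID3A (ENSG00000116017, chr19:925781-975939, plus strand) was at 9.24 CPM in the 786-O control library and 8.20 CPM in the mimic library. The A-498 control libraries held 11.4 and 10.2 CPM and the mimic libraries 13.5 and 14.6 CPM. The ACHN control libraries held 8.12, 8.81 and 8.87 CPM and the inhibitor libraries 10.6, 13.6 and 11.4 CPM. ARID3A was thus the gene other than HMGA2 that was called higher both with the mimic in A-498 and with the inhibitor in ACHN, by log2 changes of 0.31 ± 0.08 and 0.47 ± 0.09, whereas the 786-O ratio was -0.20. The A-498 call was lost without mimic replicate 2 (log2 change 0.25). Its levels spanned a narrow range, and the ranges of the top 3 groups, A-498 control, ACHN inhibitor and A-498 mimic, overlapped from each to the next, as did those of 786-O mimic and ACHN control.

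ARID3B (ENSG00000179361, chr15:74541206-74598131, plus strand) resembled HMGA2 in the mimic lines. It was at 20.7 CPM in the 786-O control library and 34.1 CPM in the mimic library. In A-498 it was at 4.40 and 4.02 CPM in the control libraries and at 12.7 and 13.5 CPM in the mimic libraries. In ACHN it was at 3.68, 4.13 and 3.93 CPM in the control libraries and at 3.23, 3.23 and 2.94 CPM in the inhibitor libraries. With the mimic the level was thus higher, and with the inhibitor lower, without overlap in A-498 and ACHN (75.7% and 43.9% of all genes tested). The log2 changes were 1.56 ± 0.09 (A-498), -0.31 ± 0.11 (ACHN) and 0.69 (786-O). The ACHN call was lost with DESeq2, without the filter on low counts, and without control replicate 2, control replicate 3 or inhibitor replicate 3 (log2 change -0.32, -0.30, -0.28, -0.31 and -0.27). The levels of ACHN control and A-498 control cells overlapped, and both 786-O libraries were above all others.

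**Figure D2:**
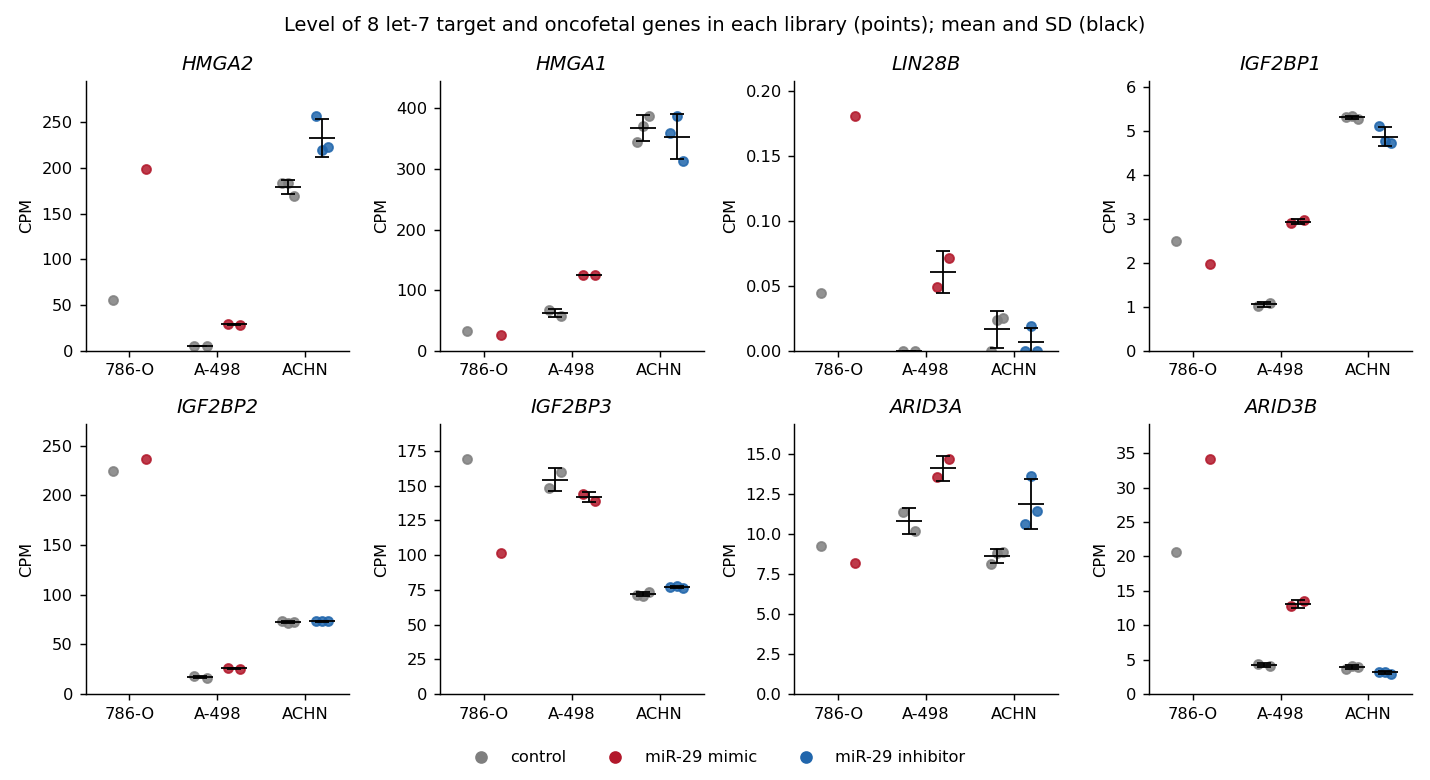
CPM of the 8 genes in every library (points; grey, control; red, miR-29 mimic; blue, miR-29 inhibitor), with the mean and SD in black for groups of 2 or 3 libraries and axes from 0 scaled for each gene. HMGA2 is higher in the treated libraries of each line, whereas LIN28B stays at or below 0.18 CPM.

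Across the list, 7 of the 8 genes were tested in A-498, and 6 were called higher and 1 lower with the mimic (edgeR), where 25.5% of all 19676 genes tested were called higher and 27.0% lower. The median log2 change was 0.92 for the 7 genes and 0.0045 for all genes. In ACHN, 2 of 7 were called higher and 1 lower with the inhibitor, where 17.3% of all 17904 genes were called higher and 14.4% lower, with medians of 0.02 and 0.0038. In 786-O, with calls set at a log2 ratio past 1 in size, 2 of 8 (HMGA2 and the barely detected LIN28B) were called higher and 0 lower, where 6.73% of 20370 genes were called higher and 8.96% lower, with medians of -0.07 and -0.0060. The treated and control ranges did not overlap for 7 of 7 genes in A-498 (75.7% of all genes tested) and for 5 of 7 in ACHN (43.9%). All of these values come from the contrasts by which the genes were listed.

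**Figure D3:**
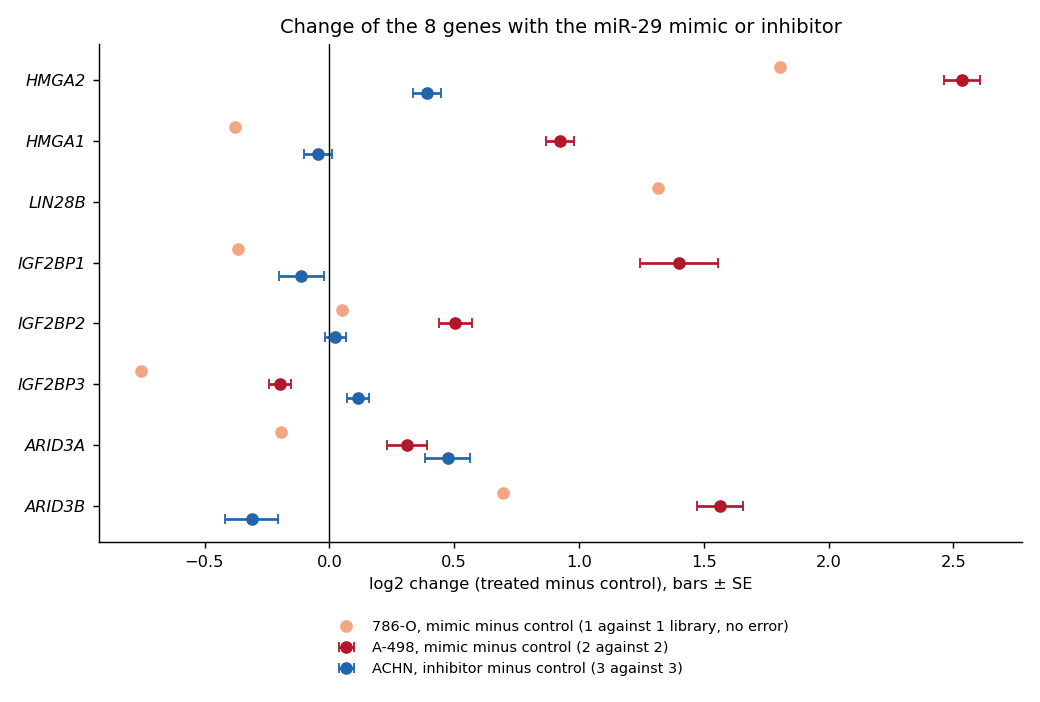
The log2 change of each gene, treated minus control, in 786-O (orange, 1 library per group, no error), A-498 (red) and ACHN (blue), with bars of 1 SE. In A-498 6 of the 7 tested genes lie to the right of 0 and HMGA2 lies farthest, at 2.53, whereas the ACHN values lie between -0.31 and 0.47.

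The levels in control cells differed widely between A-498 and ACHN, a contrast by which the genes were not listed. The control libraries also enter the known changes, so the p-values below are not independent of the choice. HMGA2 was lower in A-498 (4.70 ± 0.09 CPM, SD, n = 2) than in ACHN (179 ± 7.96 CPM, n = 3) by 5.26 ± 0.06 on the log2 scale, or 38.3-fold (edgeR quasi-likelihood test, Benjamini-Hochberg adjusted p = 1.64e-23). HMGA1 was 5.94-fold lower in A-498 (62.2 ± 6.33 against 368 ± 21.5 CPM, edgeR adjusted p = 2.93e-19). IGF2BP1 was 5.05-fold lower (1.05 ± 0.06 against 5.30 ± 0.03 CPM, edgeR adjusted p = 4.60e-12) and IGF2BP2 4.26-fold lower (17.1 ± 1.07 against 72.5 ± 1.20 CPM, edgeR adjusted p = 1.82e-17). The 4 genes with lower levels in A-498 control cells were thus both HMGA genes and the first pair of IGF2BP genes. IGF2BP3 was 2.14-fold higher in A-498 (154 ± 8.22 against 71.7 ± 1.52 CPM, edgeR adjusted p = 4.02e-15), and ARID3A was 1.25-fold higher (10.8 ± 0.83 against 8.60 ± 0.42 CPM, edgeR adjusted p = 0.0011). No difference was called for ARID3B (log2 difference 0.10 ± 0.12, edgeR adjusted p = 0.44). Of all 19689 genes tested, 41.0% were higher and 38.7% lower in A-498, and 85.1% did not overlap between the groups, as 6 of the 7 genes did not, so that a called difference was common. A log2 difference below that of HMGA2 was found for 3.21% of the genes. The lines received different control reagents, and the line and the reagent cannot be told apart here.

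**Figure D4:**
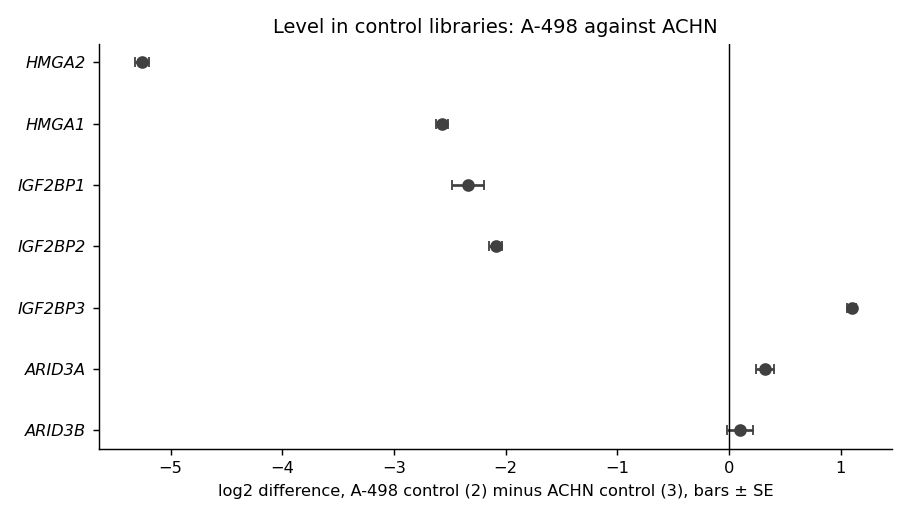
The log2 difference in level between A-498 control libraries (2) and ACHN control libraries (3) for the 7 genes tested, with bars of 1 SE. HMGA2, HMGA1, IGF2BP1 and IGF2BP2 lie between -5.26 and -2.09, and IGF2BP3 lies at 1.10.

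Per kilobase of exon, the genes also differed from each other in the control cells. In ACHN, HMGA1 was at 158 CPM per kb, IGF2BP2 at 13.6, HMGA2 at 11.9 and IGF2BP3 at 8.41. In A-498, HMGA1 was at 26.7 CPM per kb, IGF2BP3 at 18.1, IGF2BP2 at 3.21 and HMGA2 at 0.312. In 786-O, IGF2BP2 led at 42.1 CPM per kb, before IGF2BP3 at 19.8, HMGA1 at 14.3 and HMGA2 at 3.70. The exon length pools all isoforms, which for HMGA2 comes to 15070 nt, so that its level per kb is the least certain. On this scale HMGA1 and IGF2BP2 were above HMGA2 in each line, and IGF2BP3 was above it in 786-O and A-498 but not in ACHN. The order depends on the length used. By CPM in ACHN control cells, HMGA2 (179) was below HMGA1 (368) and above IGF2BP2 (72.5) and IGF2BP3 (71.7).

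The HMGA2 locus was examined for changes shared with its neighbours. MSRB3, the next protein-coding gene at lower coordinates and on the same strand, which encodes a methionine sulfoxide reductase, went from 15.5 CPM in the 786-O control library to 72.6 CPM in the mimic library, a log2 ratio of 2.20. In A-498 and ACHN it was slightly lower in the treated cells (log2 change -0.20 ± 0.05, edgeR adjusted p = 0.0024, and -0.12 ± 0.04, edgeR adjusted p = 0.045). The neighbour thus moved with HMGA2 in 786-O and not in the other lines. LLPH, on the other side, had log2 changes of 0.17 ± 0.07 in A-498 (edgeR adjusted p = 0.048), -0.03 ± 0.05 in ACHN (edgeR adjusted p = 0.67) and 0.37 in 786-O. RPSAP52, a transcribed pseudogene that overlaps the start of HMGA2 on the opposite strand, went from 0.0445 to 0.248 CPM in 786-O. These are 1 library each, and the control value was below the level of 3 counts (0.0668 CPM). In ACHN its mean went from 1.11 to 1.97 CPM (log2 change 0.85 ± 0.18, edgeR adjusted p = 0.0017). In A-498 it was too low to be tested (0.0346 and 0.102 CPM). Within HMGA2 on the same strand, the long non-coding RNA ENSG00000277945 went from 0.401 to 1.04 CPM in 786-O (log2 ratio 1.26) and was not called in ACHN (0.882 and 0.790 CPM, log2 change -0.17 ± 0.22, edgeR adjusted p = 0.61), and on the opposite strand ENSG00000256083 was not called in ACHN (log2 change 0.62 ± 0.46, edgeR adjusted p = 0.34). The libraries were stranded and their counts are marked in the deposit as taken on the reverse strand, so that reads of opposite-strand genes were counted apart. At the IGF2BP3 locus, MALSU1 overlaps on the opposite strand and had log2 changes of -0.01 ± 0.05 in A-498 (edgeR adjusted p = 0.86), -0.14 ± 0.04 in ACHN (edgeR adjusted p = 0.020) and 0.66 in 786-O. HACE1, beside LIN28B, was at group means of 12.3 to 15.8 CPM and BVES, on the other side, at 0 to 0.582 CPM.

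Over the 12 libraries, the genes whose log2 CPM was most like that of HMGA2 once the mean of each line was removed were CYFIP2 (Pearson r = 0.996), RAB3B (0.995), MAFF (0.994), TRIM22 (0.994) and EPB41 (0.993), out of 12303 genes compared. The points share their libraries and fall into treated and control groups, so that these values are a description. Their control levels in A-498 against ACHN did not share the low A-498 level of HMGA2 throughout, with log2 differences of -4.46 for RAB3B, -2.04 for CYFIP2, -0.93 for MAFF, 0.10 for TRIM22 and 0.20 for EPB41. CYFIP2, an actin regulator, had log2 changes of 1.32 in A-498, 0.20 in ACHN and 0.93 in 786-O, where HMGA2 had 2.53, 0.39 and 1.80. LIN28B did not reach the minimum level for this comparison.

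Other genes of the pathway did not share a direction. For the gene lists that follow, the shares over all genes tested were 25.5% higher and 27.0% lower in A-498. They were 17.3% and 14.4% in ACHN, and 6.73% past a log2 ratio of 1 and 8.96% past -1 in 786-O. Of 45 further genes listed as let-7 targets, 38 were tested in A-498, and 19 were higher and 12 lower with the mimic, with a median log2 change of 0.14 beside 0.0045 for all genes. The largest change was that of IL6, an inflammatory cytokine, at 2.06 ± 0.10 (edgeR adjusted p = 6.06e-10). EDN1, which encodes endothelin, and CDK6, a cell cycle kinase, were lower by log2 changes of -1.90 ± 0.08 (edgeR adjusted p = 1.63e-10) and -1.72 ± 0.06 (edgeR adjusted p = 1.21e-11). CDK6 is also in the list of miR-29 targets. In ACHN, 9 of 39 were higher and 10 lower with the inhibitor (median 7.58e-05), led by EDN1 at 1.57 ± 0.25 (edgeR adjusted p = 8.54e-05), ONECUT2, a homeobox factor, at -1.38 ± 0.16 (edgeR adjusted p = 3.82e-06) and CCND2, a G1 cyclin, at 0.79 ± 0.04 (edgeR adjusted p = 1.09e-10). In 786-O, 2 of 38 were past a log2 ratio of 1 and 5 past -1 (median 0.15).

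Genes of the machinery that makes or uses let-7 moved in both directions. Of the 21 tested, 8 were higher and 5 lower in A-498 (median 0.01) and 4 were higher and 5 lower in ACHN (median 0.0070). In 786-O 2 of 21 were past -1 and 0 past 1 (median -0.0056). These were TRIM25, an RNA-binding ubiquitin ligase (168 and 61.4 CPM, log2 ratio -1.48), and the export factor XPO5 (181 and 87.9 CPM, log2 ratio -1.07), named after their values were seen. In A-498 the Argonaute genes AGO1 and AGO2 and again XPO5 were lower by log2 changes of -0.63 ± 0.05 (edgeR adjusted p = 4.13e-08), -0.54 ± 0.04 (edgeR adjusted p = 9.79e-08) and -0.62 ± 0.05 (edgeR adjusted p = 5.88e-08). In ACHN DICER1, which cuts the precursors and is itself a let-7 target, was higher by 0.43 ± 0.05 (edgeR adjusted p = 7.90e-07). DICER1 was also higher with the mimic in A-498 (0.37 ± 0.04, edgeR adjusted p = 5.02e-06), whereas its 786-O log2 ratio was -0.26. In ACHN AGO4 was higher by 0.28 ± 0.07 (edgeR adjusted p = 0.0043). KHSRP, which promotes let-7 maturation, changed there by -0.26 ± 0.05 (edgeR adjusted p = 4.04e-04).

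Of the long transcripts that host let-7 genes, 5 were tested in A-498 and 4 in ACHN. In A-498 MIR100HG was higher with the mimic (9.23 and 20.5 CPM, log2 change 1.07 ± 0.07, edgeR adjusted p = 1.41e-08), whereas MIR99AHG (-0.39 ± 0.08, edgeR adjusted p = 8.76e-04), MIRLET7A1HG (-0.31 ± 0.08, edgeR adjusted p = 0.0067) and HUWE1 were lower. In ACHN 0 of 4 were called by edgeR, with log2 changes from -0.08 to 0.09. In 786-O 0 of 5 were past a log2 ratio of 1 in size. The median log2 change was -0.11 in A-498, -0.01 in ACHN and 0.22 in 786-O. In the control cells, 4 of the 5 hosts were higher in A-498 than in ACHN, where 41.0% of all genes tested were higher. MIR100HG was at 9.23 and 0.0665 CPM and MIR99AHG at 11.3 and 0.301 CPM. Mature let-7 is not measured in these libraries.

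Of 13 further oncofetal genes, 8 reached the level needed in A-498, 4 in ACHN and 5 in 786-O, and the others were too low. In A-498, 0 of 8 tested were higher and 1 was lower, PEG10, an imprinted retrotransposon-derived gene (log2 change -2.30 ± 0.04, edgeR adjusted p = 6.89e-14), with a median of -0.03. In ACHN, 2 of 4 were higher, PLAG1 (0.89 ± 0.09, edgeR adjusted p = 8.49e-07) and the imprinted gene MEST (0.82 ± 0.05, edgeR adjusted p = 8.22e-10), and 0 were lower, with a median of 0.36. In 786-O 1 of 5 was past -1 and 0 past 1 (median -0.39). Of 10 messages known to be bound by the IGF2BP proteins, 0 were higher and 4 lower in A-498 (median -0.09), among them MYC (-0.52 ± 0.05, edgeR adjusted p = 6.08e-07) and MKI67 (-0.36 ± 0.04, edgeR adjusted p = 2.13e-06). In ACHN 2 of 8 were higher, among them BTRC (0.23 ± 0.05, edgeR adjusted p = 0.0011), and 2 were lower, with MKI67 at -0.22 ± 0.04 (edgeR adjusted p = 4.60e-04) and a median of -0.07. In 786-O 1 of 8 was past -1 and 0 past 1 (median 0.18).

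Genes with a let-7 seed match were then taken as a whole, with the 8 genes left out. Among genes with 1 single-exon 3′ UTR common to all isoforms, 229 of 3199 had a whole let-7 seed match in the first 2000 nt and were tested in A-498. Of these, 77 were higher and 87 lower with the mimic (33.6% and 38.0%, beside 28.6% and 33.9% of all genes searched), and their median log2 change was -0.03 beside -0.01. In ACHN 63 of 223 such genes were higher and 42 lower with the inhibitor (28.3% and 18.8%, beside 21.4% and 17.7% of all genes searched). Their median was 0.0020 beside 0.0056. In 786-O the median of 226 such genes was -0.14 beside -0.05. There 9 were past 1 and 31 past -1 (3.98% and 13.7%, beside 5.57% and 9.56% of all genes searched). Ordered by median from the highest down, let-7 held place 15 of 33 miRNA families in A-498, 27 in ACHN and 32 in 786-O, and miR-29 held place 33, 1 and 33. With matches to 8mers alone, the 786-O median was 0.12 above that of all genes searched.

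**Figure D5:**
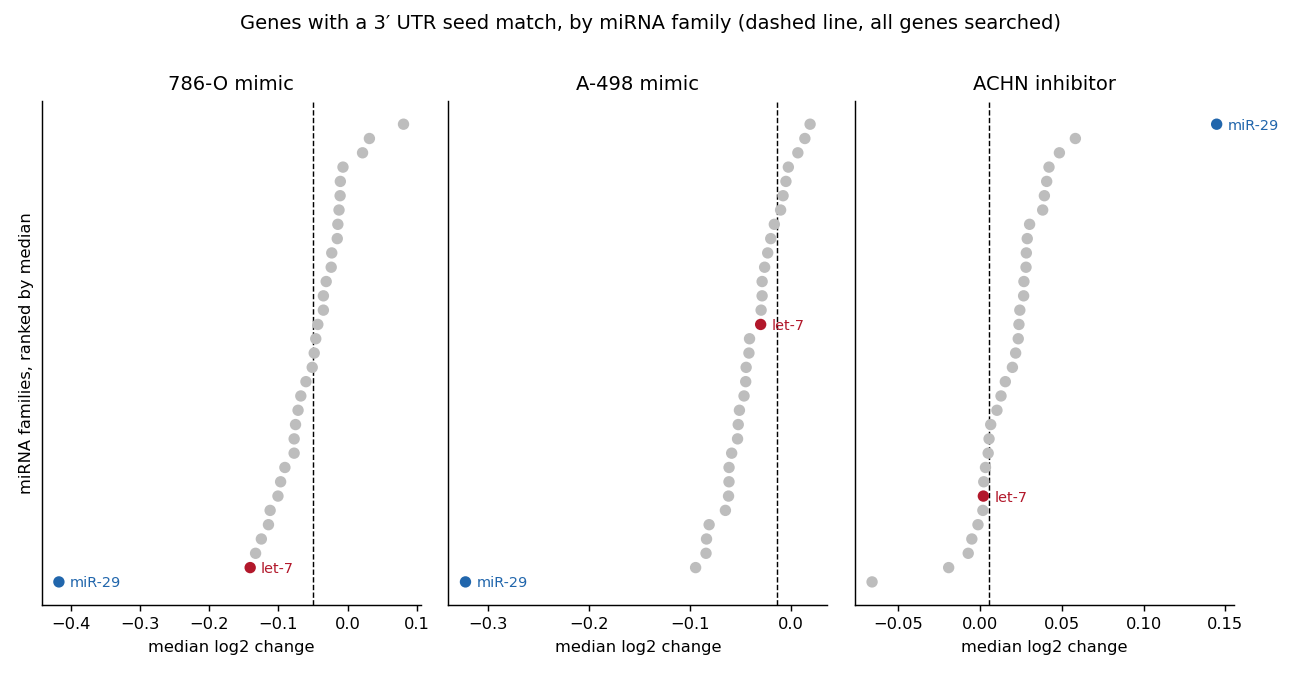
Median log2 change of genes with a whole seed match, for 33 miRNA families in order (1 point per family; red, let-7; blue, miR-29), in 786-O, A-498 and ACHN; the dashed line is the median of all genes searched and the horizontal axes differ between panels. The miR-29 family lies at one end in each panel, and let-7 lies at -0.14, -0.03 and 0.0020.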

How the data were processed

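Total RNA depleted of ribosomal RNA was sequenced by the authors from stranded libraries, aligned to GRCh38 with HISAT2 and assigned on the reverse strand to genes of Ensembl v87 by HTSeq-count with the intersection-strict setting. The deposited values are raw counts per gene, not normalised. DESeq2 tables of the authors' own comparisons (fold changes and p-values) were also deposited and were not used. Further A-498 libraries that the study set aside for doubtful labels were not analysed here. Reads in no single gene made up 37.2% to 48.0% of all reads and were left out of library sizes. Symbols from GENCODE v44 were found for 56948 of 58051 genes (98.1%).

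Groups were taken from the labels. The methods call the A-498 and ACHN libraries biological replicates. Testing used edgeR 4.0.16 (R 4.3.3) and its quasi-likelihood fit, with TMM normalisation, filterByExpr and no block, in each line by itself and between the control libraries of A-498 and ACHN. An adjusted p (Benjamini-Hochberg over all genes tested) under 0.05 was a call. For 786-O, where each condition is 1 library, log2 ratios of CPM (TMM, prior count 2) were taken with a minimum of 10 counts and no test. The fit was tested on simulated data. Biological coefficients of variation were 3.83% (A-498), 5.25% (ACHN) and 4.44% (between the lines). No replicate was a copy of another (chi-square of each pair over its degrees of freedom, 3.87 to 12.2), and intervals cover counting error only.

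The 8 genes and all lists were chosen with earlier results of these data known. Named besides the 8 genes were the genes overlapping them that were tested in A-498 or ACHN, the nearest protein-coding genes of HMGA2 and LIN28B, up to 3 called genes of largest change per list and line (1 gene is not reported here), and the 5 genes most like HMGA2 over the libraries (mean log2 CPM of at least 1). Mature miRNA sequences came from RefSeq; 33 families were searched and 1 further family had no entry. Alternatives were library size, RLE factors, DESeq2 1.42.0, no filter, the spread of all 12 libraries, leaving out each library, a replicate block, another prior count and other 3′ UTR choices.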

Additional observations from a re-analysis of the deposited data

Results flagged for a closer look

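HMGA1, IGF2BP1 and ARID3A moved one way in every A-498 library given the mimic and the other way in the 786-O mimic library. The log2 change of HMGA1 was 0.92 in A-498 and -0.38 in 786-O. For IGF2BP1 it was 1.40 in A-498 and -0.36 in 786-O, and for ARID3A it was 0.31 in A-498 and -0.20 in 786-O. The difference between the lines was not tested, and the 786-O values rest on 1 library per group.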

How the results depend on the processing

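Over all alternatives, 5 to 6 of the 8 genes were called higher and 1 lower in A-498 (5 without mimic replicate 2, through ARID3A), and 2 were higher and 4 lower between the control cells in each. The genes called higher numbered 3484 to 6191 in A-498, 2503 to 3523 in ACHN and 7602 to 9202 between the control cells. In ACHN 2 to 3 were called higher, IGF2BP3 being the added one with the spread of all 12 libraries. In ACHN the 1 gene called lower, ARID3B, became 0 without the filter on low counts and with DESeq2, and 0 to 1 when single libraries were left out. HMGA1 in ACHN, not called at -0.05, ranged from -0.117 to 0.029 when single libraries were left out, with the sign changed without inhibitor replicate 3 alone. In 786-O, with no filter on low counts, 2435 genes were past 1 and 3277 past -1, where 1371 and 1826 were so with the minimum of 10 counts, since more genes with few counts enter. The median of let-7 seed genes minus that of all genes searched, -0.02 in A-498, was 0.040 with 8mers alone, 0.022 with the longest 3′ UTR of every gene, 0.042 without the filter and 0.042 with DESeq2. In ACHN it was -0.0036, and -0.019 with 8mers alone and 0.017 with the longest 3′ UTR. In 786-O it was -0.09, and 0.12 with 8mers alone. The cause of these shifts was not tested. Replicate numbers did not pair the libraries (correlations of deviations from -0.05 to 0.04). With the replicate block in ACHN, 2 of the 8 genes were called higher and 1 lower, with 3125 and 2638 genes called, and between the control cells 2 and 4 of them, with 7661 and 7105 genes called. LIN28B is limited by depth in every library.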

Other observations

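Genes were also ordered by the number of whole let-7 seed matches in their MANE Select 3′ UTR, an ordering chosen after the data were seen and with the 8 genes left out. In A-498 the median log2 change was -0.0045 for 12171 genes with 0 matches and 0.0042 for 1309 genes with 1. It was -0.06 for 150 genes with 2 and -0.07 for 28 genes with 3 or more. In this order, 29.9%, 32.0%, 26.7% and 28.6% were called higher, and 33.2%, 34.3%, 36.0% and 46.4% were called lower. The median 3′ UTR length rose along the same order from 1144 to 7012.5 nt, and the share with a whole miR-29 seed match rose from 14.4% to 46.4%. In ACHN the medians were 0.0036, 0.03, 0.01 and 0.02, and in 786-O they were -0.01, -0.02, -0.07 and 0.06.

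Single genes with 3 or more let-7 matches went either way, and the ones named here were chosen after their values were seen. NR6A1, a nuclear receptor gene with 5 matches and no whole miR-29 seed match, had log2 changes of 1.42 in A-498 (edgeR adjusted p = 1.26e-08), -0.62 in ACHN (edgeR adjusted p = 1.48e-04) and 1.12 in 786-O, the same signs as ARID3B in all 3 lines. SMC1A, a cohesin subunit with 4 let-7 matches and no whole miR-29 seed match, had -1.03 in A-498 (edgeR adjusted p = 9.87e-11), -0.02 in ACHN (edgeR adjusted p = 0.77) and -0.71 in 786-O. ZNF512B, with 3 let-7 matches and 1 miR-29 match, had -1.15 in A-498 (edgeR adjusted p = 5.18e-09), 0.96 in ACHN (edgeR adjusted p = 7.84e-11) and -0.99 in 786-O.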
